A study of Mus musculus with 14 samples.

Results

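The genes described here are 10 members of the pathway by which cells show peptides on MHC class I molecules: the class I heavy chains H2-K1 and H2-D1, their light chain B2m, the peptide transporter subunits Tap1 and Tap2, the loading factor Tapbp, the inducible proteasome subunits Psmb8, Psmb9 and Psmb10, and the class I transactivator Nlrc5. They were chosen by name, and all 10 were found among the 17656 genes listed in each library. The libraries came from whole livers of mice on a C57BL/6 background, 8 weeks old. Saline went to 3 wild-type (WT) and 3 Ythdf1-/- mice, and concanavalin A (ConA, 8 mg/kg), a plant lectin that activates T cells, to 4 of each genotype, in all cases through the tail vein. All livers were taken after 8 h. In what follows KO denotes a library labelled Ythdf1-/-, a germline deletion made with CRISPR/Cas9 that all cells of the mouse carry. YTHDF1 is a protein that reads the m6A mark on mRNA.

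Nearly all nucleated cells cut cytosolic proteins with the proteasome, and the transporter TAP carries the resulting peptides into the endoplasmic reticulum. There tapasin, the product of Tapbp, holds TAP next to an empty heavy chain paired with beta 2 microglobulin until a peptide fits, and the complex then moves to the surface for CD8+ T cells to inspect. Interferon gamma is known to raise this pathway through factors that include IRF1 and NLRC5, and it lets Psmb8, Psmb9 and Psmb10 take the place of the constitutive catalytic subunits Psmb5, Psmb6 and Psmb7, which gives the immunoproteasome. Hepatocytes, the main cells of the liver, are known for low class I expression at rest.

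Of the 10 genes 7 lie on chromosome 17 in or beside the major histocompatibility complex, and 4 of these are neighbours. In the GRCm38.p6 assembly Psmb9 occupies chr17:34182030-34187330 on the minus strand, Tap1 chr17:34187556-34197225, Psmb8 chr17:34198195-34201454 and Tap2 chr17:34204479-34216321, all 3 on the plus strand. These are the 4 protein-coding RefSeq genes in a span of 34.3 kb. Psmb9 and Tap1 start back to back with 225 bases between them. The heavy chains lie at chr17:33996012-34000619 on the minus strand (H2-K1) and chr17:35263094-35267497 on the plus strand (H2-D1), and Tapbp at chr17:33919478-33929290 on the plus strand. B2m is on chromosome 2 (chr2:122147687-122153082, plus strand), and Psmb10 (chr8:105935728-105938392, minus strand) and Nlrc5 (chr8:94434335-94527272, plus strand) are on chromosome 8.

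RefSeq promoter windows of GRCm38.p6, from 250 bases before to 50 after a transcript start, were at hand for 8 of the 10 genes, all but Tap2 and Nlrc5. Both strands were searched for 4 motifs: the interferon gamma motif GAS (TTCNNNGAA), the core of the interferon response motif ISRE (GAAANNGAA), the short core of the cyclic AMP response element (TGACGT) and the NF-Y box (CCAAT). Only exact matches to these patterns were counted. Variants were not searched for, so a gene without a match may still hold an element of that kind. GAS was found in 1 of the 8 genes, Psmb8, and in 8.30% of all 32851 windows. The ISRE core was found in 1, B2m, and in 8.56% of all windows. TGACGT was found in 0 of 8 and in 7.51% of all windows. CCAAT was found in 6 of 8, which were H2-K1, H2-D1, B2m, Tap1, Tapbp and Psmb9, and in 37.41% of all windows. The Tap1 and Psmb9 matches are the same bases of the stretch between these genes, so they are not separate. A gene counted when any of its windows matched, whereas the shares are per window. The stretches upstream of B2m and Psmb8 are shown because they hold the exact matches to the interferon patterns searched, with the match in capitals. The B2m stretch is chr2:122147437-122147686 and the Psmb8 stretch chr17:34197945-34198194, both on the plus strand.
B2m: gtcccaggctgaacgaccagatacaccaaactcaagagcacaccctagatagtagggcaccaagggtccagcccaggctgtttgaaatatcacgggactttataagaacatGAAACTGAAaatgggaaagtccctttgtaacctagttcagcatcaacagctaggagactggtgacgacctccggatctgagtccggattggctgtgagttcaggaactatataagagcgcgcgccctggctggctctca
Psmb8: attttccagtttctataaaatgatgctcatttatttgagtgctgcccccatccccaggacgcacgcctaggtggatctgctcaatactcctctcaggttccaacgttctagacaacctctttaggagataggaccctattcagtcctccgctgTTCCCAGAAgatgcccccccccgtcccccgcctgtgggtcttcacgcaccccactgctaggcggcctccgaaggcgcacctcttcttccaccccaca

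Next come the 250 bases upstream of a RefSeq start of each heavy chain gene, and the 225 bases shared by the starts of Tap1 and Psmb9. The heavy chain stretches are shown because H2-K1 and H2-D1 differed in their values below although these stretches are near copies. All 3 stretches were chosen after the values were seen. Capitals mark CCAAT or its reverse complement. The H2-K1 stretch is chr17:34000334-34000583 on the minus strand (the more downstream of its RefSeq starts), the H2-D1 stretch chr17:35262844-35263093 on the plus strand, and the stretch between Psmb9 and Tap1 chr17:34187331-34187555, read on the strand of Tap1. The H2-K1 stretch lies inside the gene span given above, because that start is within the span. In a local alignment, 172 of 192 columns (89.6%) of the H2-K1 and H2-D1 stretches were identical, and both held CCAAT and its reverse complement close together. Both also held agtttcacttct, which is not an exact match to the ISRE core pattern on either strand and was not searched for.
H2-K1: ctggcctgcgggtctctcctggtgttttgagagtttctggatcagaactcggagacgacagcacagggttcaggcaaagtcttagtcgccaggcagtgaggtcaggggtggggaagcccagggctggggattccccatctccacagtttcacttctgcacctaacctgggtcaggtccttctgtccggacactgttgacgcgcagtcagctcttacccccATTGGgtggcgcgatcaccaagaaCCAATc
H2-D1: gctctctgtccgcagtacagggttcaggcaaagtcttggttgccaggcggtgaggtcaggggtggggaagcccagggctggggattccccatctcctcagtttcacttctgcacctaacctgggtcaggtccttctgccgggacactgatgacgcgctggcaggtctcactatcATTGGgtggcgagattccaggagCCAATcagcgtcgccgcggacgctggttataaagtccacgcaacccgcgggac
Tap1 and Psmb9: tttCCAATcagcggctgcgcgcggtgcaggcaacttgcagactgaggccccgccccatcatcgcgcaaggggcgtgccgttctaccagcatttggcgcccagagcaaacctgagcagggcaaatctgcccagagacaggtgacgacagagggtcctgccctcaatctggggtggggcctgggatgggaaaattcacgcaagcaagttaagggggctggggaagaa

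Values are TPM (transcripts per 1000000), which are corrected for transcript length, so levels can be compared between genes but carry no read depth. Each library was taken as 1 mouse. Ythdf1 itself ranged over 12.03 to 13.92 TPM in WT saline, 18.4 to 20.8 in KO saline, and after ConA over 18.7 to 25.6 (WT) and 15.5 to 26.2 (KO). It was thus not lower in the libraries labelled KO: under saline all 3 were above all 3 WT libraries (log2 difference 0.53, limma adjusted p = 0.0181), and after ConA the ranges overlapped. The tables hold whole genes and not the deleted part, so the KO label could not be checked. WT saline replicates 2 and 3 were closer to each other (median size of the log2 ratio over genes 0.0876) than the other 17 pairs of mice of 1 group (0.142 to 0.465), and replicate 3 of both ConA groups stood apart from its group. The hepatocyte markers Alb, Apoa1, Ttr, Cps1 and Hnf4a were all present. Their summed level ran from 96893 to 123471 TPM in the saline libraries and from 46986 to 75681 after ConA. By limma Alb, Apoa1, Ttr and Cps1 were called lower after ConA in both genotypes. Hnf4a was not, with log2 differences of 0.21 in WT (limma adjusted p = 0.347) and 0.33 in KO (adjusted p = 0.0539). The summed level of 12 leukocyte markers was 37.9 to 55.1 TPM (WT) and 18.2 to 47.0 TPM (KO) under saline and 318 to 561 TPM (WT) and 405 to 939 TPM (KO) after ConA, higher after ConA mostly through S100a8 and S100a9, genes of neutrophils and monocytes. Of this list limma called 4 of 9 tested genes higher and 1, the macrophage gene Adgre1, lower (-0.97, adjusted p = 0.00323) in WT, and 5 of 8 higher and 0 lower in KO. Over all genes tested, 22.0% were called higher and 31.0% lower in WT, and 33.9% and 30.7% in KO. The neutrophil marker Ly6g did not follow S100a8, at 0.57 to 5.04 TPM in WT saline and 0.18 to 1.64 in WT ConA (log2 difference -1.15, limma adjusted p = 0.0631), and Cd3e, Cd4 and Cd8a stayed below 1 TPM in every library. The summed level of 3 Kupffer cell markers was 36.7 to 56.8 TPM (WT) and 16.2 to 38.8 TPM (KO) under saline. After ConA it was 1.73 to 11.4 TPM (WT) and 2.0 to 10.3 TPM (KO). By limma Clec4f and Vsig4 were called lower after ConA in both genotypes. Timd4 was called lower in WT and not in KO (-0.14, limma adjusted p = 0.514). For 4 sinusoidal endothelial markers the sum was 12.35 to 20.2 TPM (WT) and 20.88 to 35.55 TPM (KO) under saline and 8.05 to 19.24 TPM (WT) and 9.77 to 22.7 TPM (KO) after ConA; Clec4g and Kdr were called lower and Pecam1 higher after ConA in both genotypes. In whole liver, more cells of a type and more RNA per cell cannot be told apart, and the part of these markers in the results below was not tested.

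In the saline-treated WT liver the 10 genes fell into a high, a middle and a low tier. B2m led with 5006 ± 425 TPM (SD, n = 3), followed by H2-K1 with 1917 ± 53.0 and H2-D1 with 750.4 ± 23.6. The inducible proteasome subunits and Tapbp formed the middle tier, with 65.9 ± 2.60 TPM for Psmb10, 53.8 ± 2.51 for Tapbp, 49.0 ± 1.40 for Psmb8 and 31.2 ± 6.31 for Psmb9. Lowest were the transporter subunits, Tap2 with 14.2 ± 0.950 and Tap1 with 10.1 ± 0.271, and Nlrc5 with 4.49 ± 0.125 TPM. No neighbours in this order overlapped among the WT saline mice. The order was the same in KO saline except that Psmb8 stood above Tapbp, where the ranges overlapped, as did those of Tapbp and Psmb9.

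ConA changed the order and closed part of the distance between the tiers. In WT ConA livers B2m was still first with 3570 ± 253 TPM (SD, n = 4), but H2-K1 (2085 ± 304) and H2-D1 (1858 ± 244) now had overlapping ranges. Psmb9 moved from the seventh place to the fourth with 284.5 ± 61.9 TPM, overlapping Psmb10 with 275.9 ± 38.1. Tap1 passed Tap2, with 109.6 ± 24.5 against 72.3 ± 17.9 TPM. In KO ConA livers the first 5 places were the same, and the ranges of Tap1 (121.1 ± 6.73) and Tap2 (88.5 ± 10.8) did not overlap. Nlrc5 stayed last in all 4 groups.

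**Figure D1:**
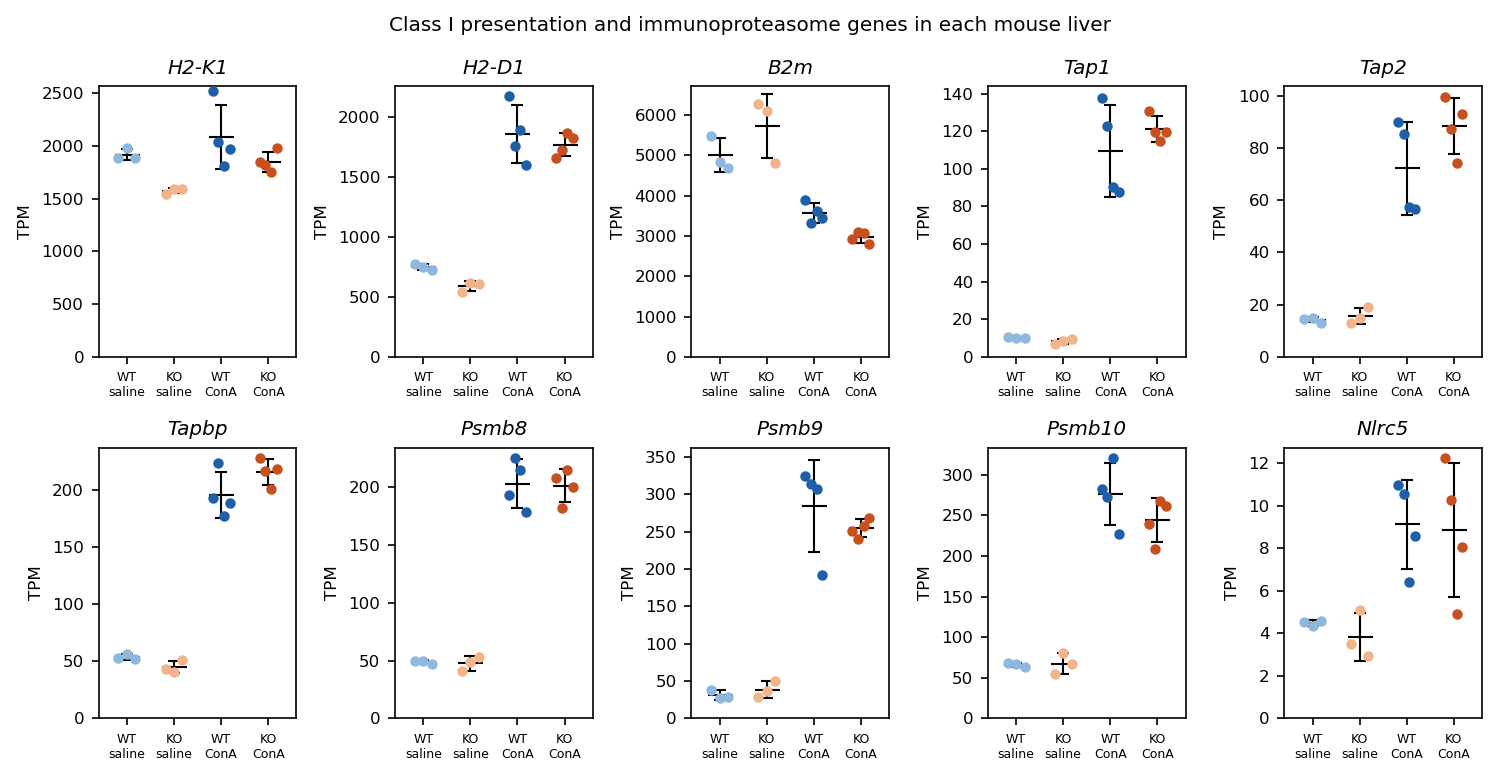
TPM of each gene (vertical axis, from 0, 1 panel per gene) in every mouse, by group on the horizontal axis; points are mice, the long tick is the group mean and the bar 1 SD, with n = 3 for the saline groups and n = 4 for the ConA groups. In 8 panels every ConA mouse of a genotype lies above every saline mouse of the same genotype except that 1 KO ConA mouse for Nlrc5 (4.89 TPM) lies under 1 KO saline mouse (5.09), B2m runs the other way, and H2-K1 shows no such separation in WT mice.

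The first comparison asked what ConA did in WT livers. Of the 10 genes, 8 were higher in WT ConA than in WT saline (H2-D1, Tap1, Tap2, Tapbp, Psmb8, Psmb9, Psmb10 and Nlrc5), B2m was lower, and H2-K1 did not pass the test. Calls are limma adjusted p-values below 0.05 on log2(TPM + 1), adjusted by Benjamini-Hochberg over all 10768 genes tested. Over all genes, 22.0% were called higher and 31.0% lower. The median log2 difference of the 10 genes was 1.93, against -0.07 over all genes tested.

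The second asked the same of KO livers, with none of the mice shared. The same genes were called: 8 of 10 higher, B2m lower, H2-K1 not passing, where 33.9% of 10988 genes were called higher and 30.7% lower. The median log2 difference was 1.96 for the 10 genes and 0.07 over all genes. The values of each gene follow by its role.

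**Figure D2:**
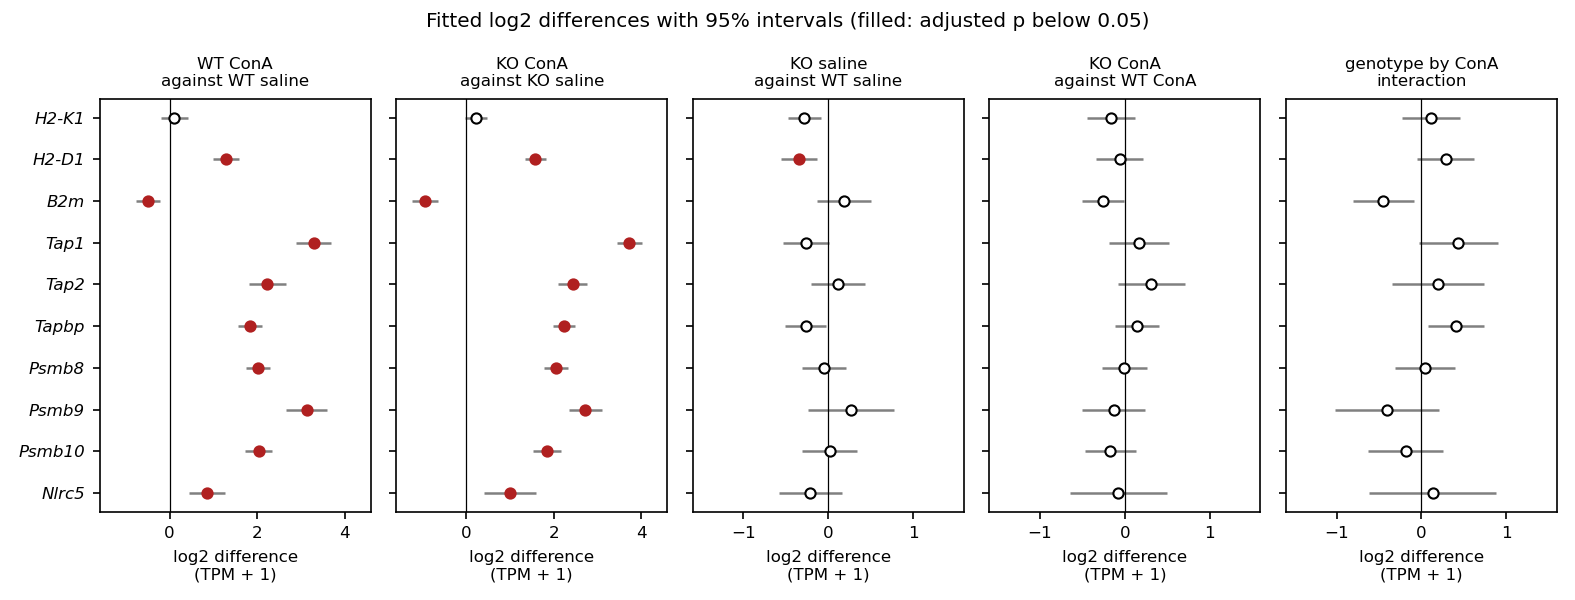
Fitted difference of each gene on the log2(TPM + 1) scale (horizontal axis) with its 95% interval, 1 panel per comparison; filled points have a limma adjusted p below 0.05. The first 2 panels, on a wider axis, hold 9 filled points each, from -0.49 for B2m to 3.29 for Tap1 in WT and from -0.94 to 3.73 in KO, against 1 filled point (H2-D1, -0.35) in the saline panel and 0 in the last 2.

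Of the heavy chains, which present the peptide, H2-D1 rose and H2-K1 did not pass the test. H2-D1 read 773.9, 750.7 and 726.7 TPM in the WT saline mice and 2178, 1760, 1889 and 1603 in the WT ConA mice. In KO mice it read 544.5, 617.5 and 608.0 under saline and 1657, 1727, 1872 and 1827 after ConA. No saline mouse came near a ConA mouse in either genotype. The ratio of the group means was 2.48 in WT and 3.001 in KO, and the log2 differences were 1.298 (SE 0.13, limma adjusted p = 4.15e-05) and 1.58 (SE 0.11, adjusted p = 6.22e-07).

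H2-K1 read 1883, 1978 and 1890 TPM in WT saline and 2520, 2036, 1813 and 1973 in WT ConA, so the groups overlapped. In KO it read 1549, 1591 and 1589 under saline and 1846, 1815, 1756 and 1978 after ConA, where all ConA mice were above all saline mice. The log2 difference was 0.11 (95% interval -0.19 to 0.41, limma adjusted p = 0.519) in WT and 0.23 (-0.01 to 0.47, adjusted p = 0.0887) in KO. It passed in KO only without KO ConA replicate 3 (0.25, adjusted p = 0.0483). Within a library, H2-D1 stood at 0.392 ± 0.0169 of H2-K1 in WT saline and 0.374 ± 0.0196 in KO saline (SD, n = 3), and at 0.896 ± 0.1004 in WT ConA and 0.960 ± 0.0740 in KO ConA (n = 4). Of the 50-base stretches of their longest coding transcripts, 91.21% for H2-K1 and 85.68% for H2-D1 occur in no other gene, so reads of that length can be shared with other class I genes in both, and the values depend on how they were assigned.

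B2m, the invariant light chain, was the only 1 of the 10 that fell in share. It read 5489, 4841 and 4689 TPM in WT saline and 3903, 3316, 3612 and 3450 in WT ConA. KO mice read 6274, 6110 and 4809 under saline and 2918, 3107, 3067 and 2796 after ConA. All ConA mice were below all saline mice of their genotype. The mean after ConA was 0.713 of that under saline in WT (log2 difference -0.49, SE 0.12, limma adjusted p = 0.00739) and 0.519 in KO (-0.94, SE 0.14, adjusted p = 0.000133). TPM are shares of a library, and after rescaling every library with a size factor (the median over genes of its ratio to the mean library) the WT difference was -0.39 and lost the call (adjusted p = 0.0863), while in KO it was -0.97 (adjusted p = 0.00351). H2-K1 relative to B2m, which needs no scaling, stood at 0.385 ± 0.0364 in WT saline, 0.583 ± 0.0621 in WT ConA, 0.279 ± 0.0449 in KO saline and 0.624 ± 0.0613 in KO ConA. Every 50-base stretch of B2m is found in B2m alone.

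Both transporter subunits rose, Tap1 from below Tap2 to above it, although the protein works as a pair of 1 TAP1 and 1 TAP2. Tap1 read 10.3, 10.1 and 9.78 TPM in WT saline and 137.6, 122.6, 90.5 and 87.6 in WT ConA. Among KO mice it read 6.95, 8.21 and 9.65 under saline and 130.6, 119.7, 114.6 and 119.7 after ConA. The mean was 10.9 times higher after ConA in WT (log2 difference 3.29, SE 0.18, limma adjusted p = 1.22e-06) and 14.6 times higher in KO (3.73, SE 0.13, adjusted p = 4.92e-09), with no overlap. This was the largest fitted difference among the 10 genes in both genotypes.

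Tap2 read 14.6, 14.9 and 13.1 TPM in WT saline and 90.0, 85.3, 57.4 and 56.5 in WT ConA. The KO mice had 13.1, 14.8 and 19.0 under saline and 99.5, 87.4, 74.2 and 93.0 after ConA. The mean was 5.09 times higher in WT (log2 difference 2.24, SE 0.19, limma adjusted p = 1.69e-05) and 5.67 times higher in KO (2.44, SE 0.15, adjusted p = 2.79e-07), without overlap. Tap1 over Tap2 within a library was 0.7101 ± 0.0336 (WT) and 0.531 ± 0.0222 (KO) under saline and 1.52 ± 0.0611 (WT) and 1.38 ± 0.117 (KO) after ConA, so the order of the subunits turned in all 8 ConA mice. WT ConA replicates 1 and 2 were the high pair for both genes and replicates 3 and 4 the low pair.

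Tapbp, whose product tapasin bridges TAP and the heavy chain, read 52.8, 56.7 and 51.9 TPM in WT saline and 192.7, 223.9, 176.9 and 188.1 in WT ConA. Values in KO were 43.0, 40.7 and 50.7 under saline and 227.7, 216.4, 200.6 and 218.1 after ConA. The groups were apart in both genotypes. The mean was 3.63 times higher in WT (log2 difference 1.84, SE 0.12, limma adjusted p = 4.17e-06) and 4.82 times higher in KO (2.25, SE 0.11, adjusted p = 7.10e-08).

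All 3 inducible catalytic subunits rose in both genotypes, with the largest fitted difference for Psmb9. Psmb8, the chymotrypsin-like subunit that replaces Psmb5, read 49.9, 49.7 and 47.4 TPM in WT saline and 193.6, 225.1, 215.2 and 178.2 in WT ConA. In KO it read 40.7, 48.9 and 53.3 under saline and 207.7, 182.2, 215.1 and 200.2 after ConA. The mean was 4.14 times higher in WT and 4.23 times in KO, the closest match between the genotypes of the 10 genes (log2 differences 2.02, SE 0.12, limma adjusted p = 2.45e-06, and 2.06, SE 0.12, adjusted p = 2.10e-07).

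Psmb9, which replaces Psmb6, read 38.5, 27.1 and 28.1 TPM in WT saline and 324.8, 314.0, 307.0 and 192.3 in WT ConA. In KO livers it read 28.2, 37.1 and 50.01 under saline and 251.1, 239.8, 257.2 and 268.6 after ConA. WT ConA replicate 4 was well below its group. The mean was 9.11 times higher in WT (log2 difference 3.13, SE 0.21, limma adjusted p = 4.25e-06) and 6.61 times in KO (2.73, SE 0.17, adjusted p = 2.42e-07). Psmb10, which replaces Psmb7, read 67.6, 67.2 and 62.9 TPM in WT saline and 282.7, 273.0, 320.3 and 227.6 in WT ConA. KO livers read 54.6, 80.9 and 66.9 under saline and 239.1, 208.8, 267.1 and 261.9 after ConA. The mean was 4.19 times higher in WT (log2 difference 2.04, SE 0.14, limma adjusted p = 4.22e-06) and 3.62 times in KO (1.85, SE 0.15, adjusted p = 1.60e-06).

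Nlrc5, the transactivator that binds class I promoters through the RFX and NF-Y proteins, had the smallest rise. It read 4.55, 4.35 and 4.58 TPM in WT saline and 10.99, 10.6, 6.43 and 8.58 in WT ConA. The KO livers had 3.48, 5.09 and 2.92 under saline and 12.3, 10.3, 4.89 and 8.05 after ConA. Replicate 3 was the lowest ConA mouse in both genotypes, and in KO it fell within the saline range. The mean was 2.03 times higher in WT (log2 difference 0.86, SE 0.18, limma adjusted p = 0.00353) and 2.32 times in KO (0.99, SE 0.27, adjusted p = 0.00747). At these low levels log2(TPM + 1) understates the fold.

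**Figure D3:**
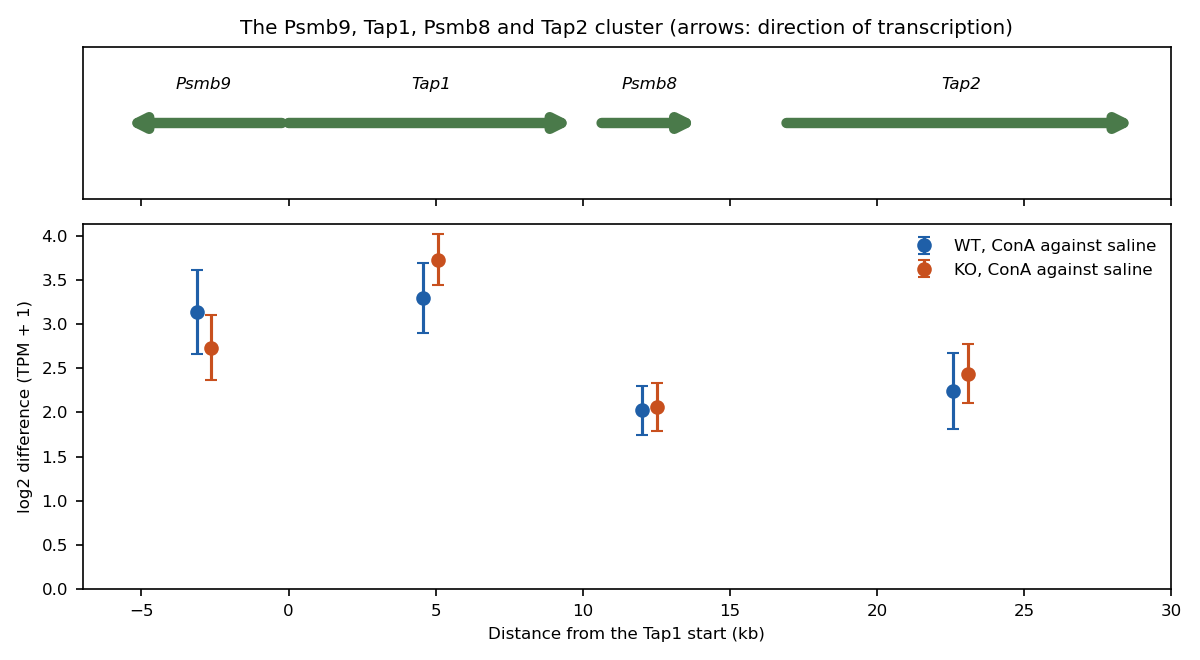
The 4 neighbouring genes by distance from the Tap1 start in kb (upper panel, arrows point with transcription) and their fitted ConA differences on the log2(TPM + 1) scale with 95% intervals (lower panel, from 0; blue WT, orange KO). The back-to-back genes Psmb9 and Tap1 have the larger differences (2.73 to 3.73) and Psmb8 and Tap2 the smaller (2.02 to 2.44).

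Whether the inducible subunits gained on the subunits they replace was asked within each library, a ratio that does not depend on how libraries are scaled. Psmb8 over Psmb5 was 0.241 ± 0.0190 in WT saline and 0.150 ± 0.0172 in KO saline (SD, n = 3), and 0.828 ± 0.0858 in WT ConA and 0.858 ± 0.0201 in KO ConA (n = 4). Psmb9 over Psmb6 was 0.134 ± 0.0179 (WT) and 0.117 ± 0.0432 (KO) under saline, and 1.27 ± 0.266 (WT) and 1.29 ± 0.0806 (KO) after ConA. Psmb10 over Psmb7 was 0.274 ± 0.00650 (WT) and 0.269 ± 0.0596 (KO) under saline, and 1.32 ± 0.232 (WT) and 0.954 ± 0.0858 (KO) after ConA. For all 3 ratios every ConA mouse was above every saline mouse.

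The log2 ratios differed between ConA and saline by 2.15 for Psmb8 over Psmb5, 3.37 for Psmb9 over Psmb6 and 2.05 for Psmb10 over Psmb7. An exact two-sided permutation test with labels permuted within each genotype gave p = 0.000816 for each, the smallest of 1225 arrangements, and the same value after adjustment over the 3 ratios. Between KO ConA and WT ConA the log2 ratios differed by 0.06 for Psmb8 over Psmb5 (exact permutation p = 0.771) and 0.04 for Psmb9 over Psmb6 (p = 0.800, exact permutation test). Psmb10 over Psmb7 was lower in KO ConA by -0.45, without overlap of the groups, at exact p = 0.0286, the smallest that 4 against 4 allows, and this did not hold after adjustment over the 3 ratios (0.0857). Psmb5 shares much of its sequence with a pseudogene: 42.94% of its 50-base stretches occur in no other gene, so its value depends on how shared reads were assigned.

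**Figure D4:**
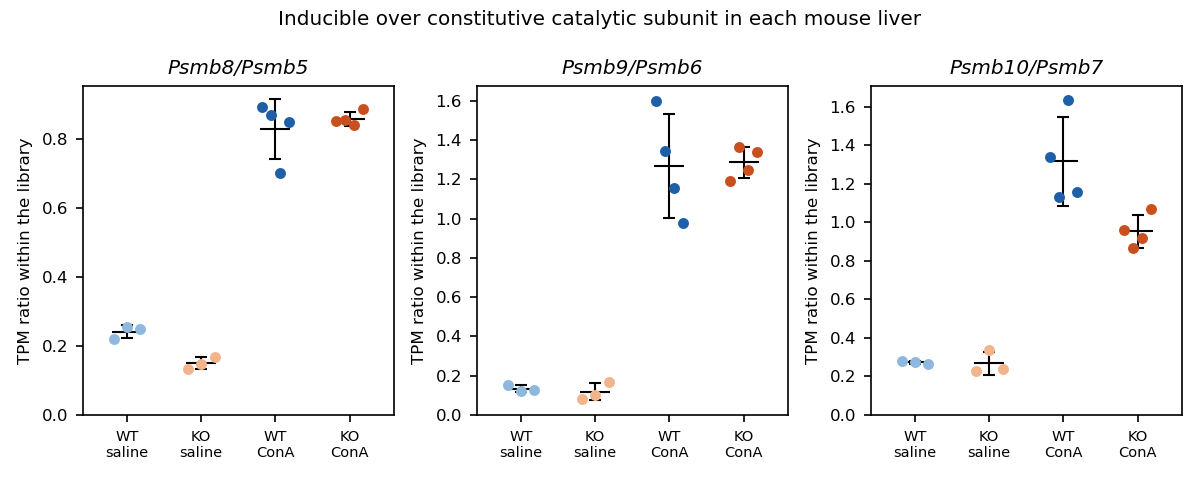
Ratio of the TPM of an inducible to its constitutive catalytic subunit within each library (vertical axes from 0), by group; points are mice, long ticks group means and bars 1 SD (n = 3 for saline, n = 4 for ConA). Psmb9 over Psmb6 has group means of 0.117 and 0.134 under saline and 1.27 and 1.29 after ConA, and the 4 KO ConA mice lie below the 4 WT ConA mice for Psmb10 over Psmb7.

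The constitutive subunits themselves took another course. In WT, none of the 3 passed the test between ConA and saline (limma adjusted p = 0.182 to 0.774). In KO, Psmb5 fell by 0.44 (adjusted p = 0.00435) and Psmb6 by 0.75 (adjusted p = 0.000187) on the log2 scale, from levels that were higher under saline. Psmb5 read 189.9 to 227.7 TPM in WT saline and 304.4 to 331.5 in KO saline (log2 difference 0.64, limma adjusted p = 0.0149), and Psmb6 read 221.4 to 249.0 and 301.4 to 360.6 (0.52, adjusted p = 0.0211). Under the alternatives, chosen for these genes after the values were seen, the saline calls held in 11 of 14 for Psmb5 and 8 of 14 for Psmb6. Both were lost with WT saline replicates 2 and 3 averaged (limma adjusted p = 0.0825 and 0.102) and without WT saline replicate 2 or 3 (0.0836 to 0.108), and that of Psmb6 also without KO saline replicate 1 or 2 (0.0612 and 0.056). The interaction of genotype and ConA was -0.71 (adjusted p = 0.0459) for Psmb5 and -0.70 (adjusted p = 0.0382) for Psmb6, calls that depend on single libraries as given further on.

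The third comparison asked whether the genotypes differed under saline. Of the 10 genes 1 was called, H2-D1, lower in KO with a log2 difference of -0.35 (95% interval -0.56 to -0.14, limma adjusted p = 0.0387), where 19.2% of all 10459 genes were called. All KO saline mice (544.5 to 617.5 TPM) were below all WT saline mice (726.7 to 773.9). The call was lost with WT saline replicates 2 and 3 averaged (0 of 10 called) and after rescaling (-0.27, adjusted p = 0.0904), and without any single one of 5 of the 6 saline libraries (all but KO saline replicate 3). H2-K1 (-0.28, adjusted p = 0.0544), Tap1 (-0.27, adjusted p = 0.135) and Tapbp (-0.26, adjusted p = 0.104) also had groups that did not overlap, with the KO lower, and did not pass. Without KO saline replicate 3 all 3 passed, with 4 of 10 called, where 2739 of 10586 genes were called. The 6 other genes overlapped, with log2 differences from -0.21 for Nlrc5 to 0.27 for Psmb9. The median log2 difference was -0.13 for the 10 genes and -0.10 over all genes tested. By limma 3 of the 10 had an unadjusted p below 0.05, as did 38.8% of all genes. Groups also did not overlap for 27 of the 50 tested genes of the pathway lists below, and the share over all genes is not given here. In the same comparison the sinusoidal endothelial sum was higher in KO without overlap, with Clec4g (0.98, limma adjusted p = 0.0421) and Pecam1 (0.57, adjusted p = 0.0318) called, and Ythdf1 was higher in the libraries labelled KO; the part of either in these differences was not tested.

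The fourth asked whether ConA-treated KO livers differed from ConA-treated WT livers, and it shares mice with the first 2. By limma 0 of the 10 genes were called, where 0.428% of 10519 genes (45) were called, and 1 had an unadjusted p below 0.05, as did 16.7% of all genes. That gene was B2m, lower in KO in 4 of 4 mice without overlap (2796 to 3107 against 3316 to 3903 TPM, log2 difference -0.26, 95% interval -0.51 to -0.02, limma adjusted p = 0.268). For the other 9 the groups overlapped. The largest difference was that of Tap2, 0.31 (95% interval -0.09 to 0.71, limma adjusted p = 0.429), and the smallest that of Psmb8, -0.01 (-0.27 to 0.26). The 95% intervals of all 10 lay between -0.64 (Nlrc5) and 0.71 (Tap2), so differences up to those sizes were not resolved.

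The interaction asked whether the ConA change itself differed between the genotypes. By limma over all 14 libraries it was called for 0 of the 10 genes, where 4.78% of 11327 genes were called, and 2 had an unadjusted p below 0.05, as did 25.3% of all genes. These were B2m, which fell further in KO (-0.45, 95% interval -0.81 to -0.09, limma adjusted p = 0.120), and Tapbp, which rose further (0.41, 0.08 to 0.74, adjusted p = 0.125). The estimates for the other 8 ran from -0.40 for Psmb9 to 0.43 for Tap1. The median over all genes tested was 0.14 as deposited and 0.03 after rescaling, and the estimates of H2-K1 (0.12) and Psmb8 (0.04) turned to -0.02 and -0.10 after rescaling, so their direction is not set.

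Other genes of the pathway, in lists written by hand, give the surroundings of these 10. Their counts stand beside the shares over all genes tested, 22.0% higher and 31.0% lower in WT and 33.9% and 30.7% in KO. Of 15 tested class I and class I-like chains, 5 rose and 5 fell in WT ConA, with a list median of -0.27 (-0.07 over all genes), so these shares were near those of all genes. Those that rose were H2-Q4, H2-Q6, H2-Q7, H2-T23 and H2-M3, led by H2-Q4 (44.9 to 54.5 TPM under saline, 140.9 to 235.8 after ConA, log2 difference 1.86, limma adjusted p = 3.08e-05) and H2-Q7 (1.38, adjusted p = 0.000427). Those that fell were H2-Q10, Cd1d1, Mr1, Hfe and Fcgrt, of which Cd1d1 and Mr1 present lipids and vitamin metabolites rather than peptides, Hfe acts in iron sensing and Fcgrt is the neonatal Fc receptor. Fcgrt fell by 1.37 (adjusted p = 3.51e-05). The chains that Hfe, Mr1, Cd1d1 and Fcgrt encode also pair with beta 2 microglobulin. In KO, 5 rose and 6 fell, again near the shares of all genes. Of the 50-base stretches of H2-Q4, H2-Q6, H2-Q7 and H2-T23, 75.75%, 68.03%, 65.06% and 71.19% occur in no other gene, less than for H2-K1 or H2-D1, so their values depend more on how reads shared with other class I genes were assigned. The only member of this list with a called interaction was H2-T23, which encodes Qa-1 (0.67, adjusted p = 0.0382). It read 378.1 to 391.3 TPM (WT) and 237.7 to 289.2 TPM (KO) under saline, and 440.4 to 618.9 TPM (WT) and 544.1 to 584.1 TPM (KO) after ConA.

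Genes for loading and trimming in the endoplasmic reticulum rose without exception among those called, 5 of 7 tested in WT and 8 of 8 in KO, with list medians of 1.45 and 1.24. Tapbpl, the tapasin-related loading factor, had the largest difference (17.3 to 20.6 TPM in WT saline, 68.9 to 111.4 in WT ConA, log2 difference 2.08, limma adjusted p = 1.40e-05). Sec61a1, the translocon subunit (1.64), and Uggt1, the glucosyltransferase of glycoprotein quality control (1.297), rose as well. Of 6 cytosolic peptidases 2 rose (Npepps, 0.84, and Tpp2, 0.70) and 2 fell (Blmh and Ide) in WT, and 3 rose in KO, with list medians of 0.01 and 0.38. Blmh fell in WT (-0.47, adjusted p = 0.0359), rose in KO (0.53, adjusted p = 0.0110), and its interaction was called (1.002, adjusted p = 0.0305).

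Among 5 proteasome activators and assembly factors, the activator subunits Psme1 (0.61, limma adjusted p = 0.00342) and Psme2 (0.87, adjusted p = 0.000169) rose in WT, and Psme2, Psme3 and Psme4 in KO (list medians 0.31 and 0.40). Psme3 in WT was at 0.31 (adjusted p = 0.0714; 0.00898 without WT ConA replicate 3). Their differences were well under those of the inducible catalytic subunits. Of 10 factors acting on class I promoters, 5 rose in WT and 7 in KO, with 0 lower in both and list medians of 0.45 and 0.58. Irf1 went from 22.7 to 27.9 TPM in WT saline to 213.0 to 352.0 in WT ConA (3.42, adjusted p = 2.10e-06) and from 15.3 to 17.95 in KO saline to 365.9 to 425.4 in KO ConA (4.49, adjusted p = 4.36e-10), and its interaction was called (1.06, adjusted p = 0.0307). Nfya, an NF-Y subunit, rose by 1.16 (limma adjusted p = 0.000112) in WT. Irf1 in WT ConA had the same high pair (replicates 1 and 2) and low pair (3 and 4) as Tap1 and Tap2. So did H2-K1, Tapbp, Psmb9 and Nlrc5, whereas H2-D1, B2m, Psmb8 and Psmb10 did not. This likeness was seen after the fact and was not tested.

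Ifng, the cytokine that induces the pathway, was listed at 0 to 0.14 TPM under saline. After ConA it read 3.86, 2.46, 1.63 and 1.01 TPM in WT and 6.05, 6.28, 12.1 and 5.02 in KO. All 4 KO mice were above all 4 WT mice, yet neither the difference (1.38, limma adjusted p = 0.0674) nor the interaction (1.41, adjusted p = 0.0503) passed. The interaction passed without WT ConA replicate 1 (1.63, limma adjusted p = 0.0273) or KO ConA replicate 3 (1.17, adjusted p = 0.0487), and the difference with all 14 libraries in the fit (adjusted p = 0.00973). Of its receptor and kinases Ifngr2 was called in WT (0.74, adjusted p = 0.00306), all were called higher in KO, and Ifngr2 had a called interaction (1.14, adjusted p = 0.0185). Ifngr1 in WT was at 0.49 (adjusted p = 0.0842; 0.00162 without WT ConA replicate 3). In KO ConA against WT ConA limma called 0 of the 51 tested genes of these 7 lists, and 12 had an unadjusted p below 0.05, as did 16.7% of all genes.

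The 6 interaction calls in these lists (Psmb5, Psmb6, H2-T23, Blmh, Irf1 and Ifngr2), among 52 genes tested and with 4.78% of all genes called, kept their direction under 22 alternatives, but none kept its call under all of them. The call held in 17 of 22 for Ifngr2, 15 for Blmh and Irf1, 13 for Psmb6, 11 for H2-T23 and 9 for Psmb5. All 6 were lost with WT saline replicates 2 and 3 averaged (limma adjusted p = 0.0747 to 0.130), without WT saline replicate 2 (0.0704 to 0.126) or 3 (0.0766 to 0.137) and without KO saline replicate 1 (0.0692 to 0.103) or 2 (0.0519 to 0.108). Without KO ConA replicate 2 or 4 only that of Ifngr2 held, among adjusted p-values up to 0.0813 and 0.088. Psmb5 or H2-T23 also lost its call without WT saline replicate 1, KO saline replicate 3, WT ConA replicate 2 or KO ConA replicate 1 (0.0512 to 0.0643). Rescaling ended the calls of Psmb5, Psmb6 and H2-T23 (0.0842 to 0.130).

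Most of the calls after ConA that were rerun for these lists held under all of their alternatives, with these exceptions. In WT, Blmh held in 8 of 15 alternatives, Ide in 7 and H2-T23 in 9, and leaving out WT saline replicate 2 or 3 or WT ConA replicate 1 ended each (limma adjusted p = 0.0558 to 0.173). In addition WT ConA replicate 4 decided the call for Blmh (0.0663 without it), WT ConA replicates 2 and 3 for Ide (0.0648 and 0.0928), and WT saline replicate 1 and WT ConA replicate 2 for H2-T23 (0.0568 and 0.0536). In KO, Blmh was lost without KO saline replicate 1 (0.0537), Psme3 without KO saline replicate 2 (0.0904), and Psme4 without either (0.0669 to 0.0768).

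**Figure D5:**
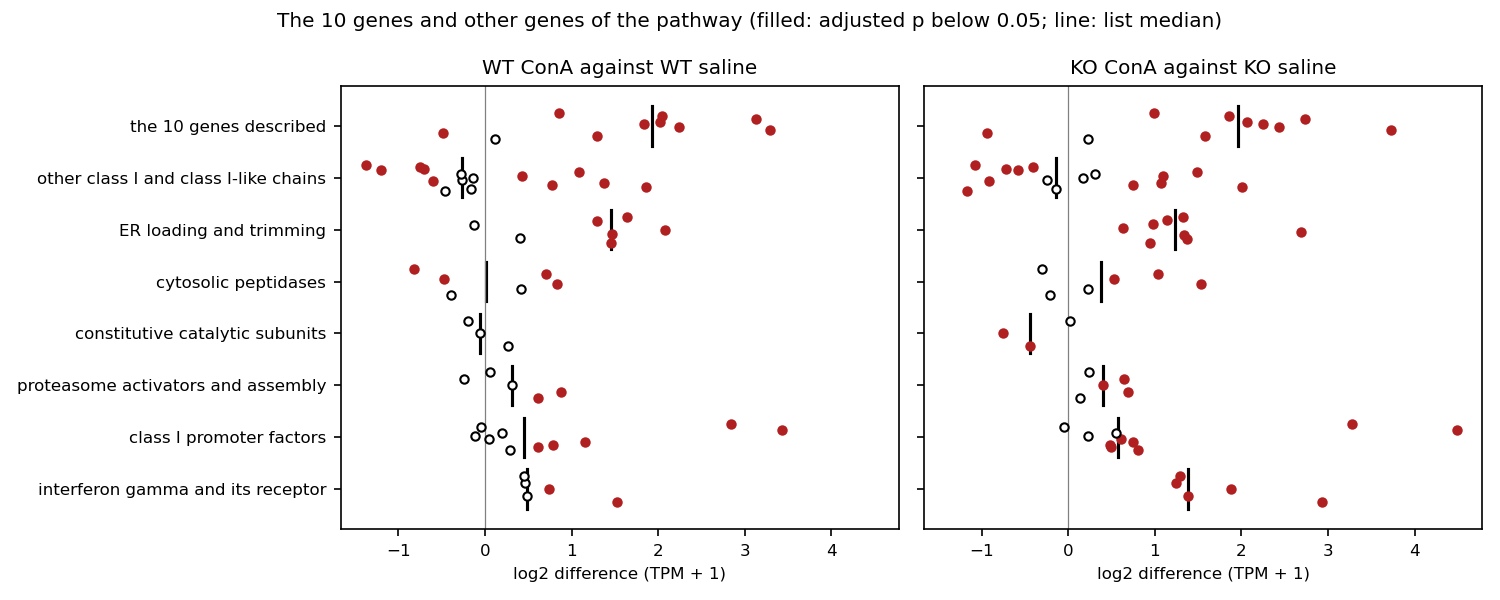
Fitted ConA difference on the log2(TPM + 1) scale (horizontal axis) of each tested gene, by list, in WT (left) and KO (right); filled points have a limma adjusted p below 0.05 and the black line is the list median. The median of the 10 genes is at 1.93 and 1.96, while those of the constitutive catalytic subunits are at -0.05 and -0.44.

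The genes whose pattern over the 14 libraries was most like the mean pattern of the 10 were Noc4l, Pcid2, Ifitm2, Slc41a1 and Preb. Likeness was the root mean square difference of log2(TPM + 1) after centring each gene on its mean, and it was 0.135, 0.141, 0.141, 0.145 and 0.155 among 11317 other genes. Ifitm2, an interferon-induced transmembrane protein gene, read 398.4 to 526.2 TPM in the saline libraries and 1314 to 1574 after ConA. Among the 10, H2-D1 (0.165), Psmb10 (0.212), Psmb8 (0.215) and Tapbp (0.231) lay nearest the mean pattern, and H2-K1 (0.749), Tap1 (0.923) and B2m (1.19) farthest. The measure counts the size of a change as well as its direction, so a gene with a larger rise can lie far from the mean pattern. Of the 11317 other genes, 10 lay nearer than H2-D1 and 6131 nearer than Tap1. Shared regulation was not tested.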

How the data were processed

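Liver RNA of 14 mice was sequenced on a BGISEQ-500 (single end, 50 bases). The authors deposited 1 TPM table per mouse, with 17656 genes and 2 decimals. The submitters' processing notes name Bowtie2, RSEM 1.3.1 and GRCm38.p6, whereas the study's methods name STAR and HTSeq; the annotation is not given in the sources used here. TPM hold no read counts, so depth is unknown and error was taken from the mice of a group alone. No columns of values were left out (0).

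TPM were tested as log2(TPM + 1) with limma 3.58.1 (trended eBayes) in R 4.3.3. Genes entered a test when no fewer libraries than the smaller group holds reached a TPM of 1, and were called at a Benjamini-Hochberg adjusted p below 0.05 over all genes tested. The count test named in the study's methods needs counts. Pairwise comparisons used the libraries of their groups, and the interaction all 14. Subunit ratios were compared with exact permutation tests; other ratios were chosen after values were seen and have no test. The labels number the libraries of a group as replicates, and the paper's methods describe independent biological replicates in each group.

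The 10 genes, the lists and the tests were chosen with earlier results of these data known. All 10 genes were named; of each list the 3 tested genes with the smallest p in WT ConA against WT saline, genes with a called interaction, and the 5 genes of nearest pattern were named, except 1 list gene that is not reported here. H2-Q10, Cd1d1 and other list members were named as part of a count, after their values were seen. Alternatives were no filter or one at TPM of 5, a pseudocount of 0.1, median-ratio rescaling, robust eBayes, WT saline replicates 2 and 3 averaged, a replicate block, all 14 libraries in each fit, and each library left out; leaving out both ConA replicates 3, and all alternatives for list genes, were added after seeing the data. The fit was tested on simulated data. Shared sequence was measured as 50-base stretches of GENCODE vM21 transcripts, and positions and promoters came from RefSeq for GRCm38.p6, matched by gene ID. Python 3.11.15 and pandas 2.3.3 were used.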

Additional observations from a re-analysis of the deposited data

Results flagged for a closer look

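Psmb9 in the WT ConA group was flagged because 1 mouse lay far from the others: replicate 4 read 192.33 TPM against 307.0 to 324.8 in the other 3, a gap of 0.8655 of the range of the group by Dixon's measure. It was the only flag among 20 tests, the number of the 10 genes times the 2 groups of 4 mice, and chance flags about 1 in 20. The same mouse was also the lowest of its group for Psmb8 (178.2 TPM), Psmb10 (227.6), H2-D1 (1603), Tap1 (87.6) and Tap2 (56.5). Without it the log2 difference of Psmb9 between WT ConA and WT saline was 3.31 (limma adjusted p = 3.35e-06), against 3.13 with it.

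In 6 other genes of the pathway the ConA difference itself differed between WT and KO by the limma interaction test, on the log2(TPM + 1) scale: Ifngr2 by 1.14, Irf1 by 1.06, Blmh by 1.002 and H2-T23 by 0.67, all higher in KO, and Psmb5 by -0.71 and Psmb6 by -0.70 (limma adjusted p = 0.0185 to 0.0459). They were 6 of 52 list genes tested, where 4.78% of all 11327 genes were called. Each of these calls was lost when WT saline replicates 2 and 3 were averaged. Each was also lost without WT saline replicate 2 or 3, and without KO saline replicate 1 or 2.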

How the results depend on the processing

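After ConA, 8 or 9 of the 10 genes were called in WT over 15 alternatives and 9 or 10 in KO over 14, and 0 in KO ConA against WT ConA and in the interaction under each of 16 and 22. Rescaling took the call from B2m in WT (-0.39, limma adjusted p = 0.0863). The causes of these and the following changes were not tested. In KO saline against WT saline the count of 1 called gene became 2 with a filter at TPM of 5 and 0 with no filter, with rescaling, with WT saline replicates 2 and 3 averaged and with all 14 libraries, and ran from 0 to 4 with single libraries left out: it was 4 without KO saline replicate 3 and 0 without each of the others. Over all genes the 2009 calls of that comparison became 584 with no filter, 49 with the averaged pair and 284 with all 14 libraries (45 to 2739 leaving out single libraries). The 45 calls of KO ConA against WT ConA became 4 with no filter, 27 rescaled (13 higher, 14 lower, against 36 and 9) and 623 with all 14 libraries (5 to 52 leaving out libraries). The 541 calls of the interaction became 328 with no filter, 28 with the averaged pair and 1591 without both ConA replicates 3 (22 to 769 leaving out libraries).

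With a replicate block, KO ConA against WT ConA had 140 calls over all genes and the interaction 358, and no call of the 10 genes changed in any comparison; among the list genes it ended the interaction calls of Psmb5, Psmb6 and H2-T23 (limma adjusted p = 0.0609 to 0.0635) and the calls of Blmh in WT (0.0808) and Psme3 in KO (0.0758) after ConA, and Ifng passed in the interaction (0.0477). Whether the labels' numbers pair the mice could not be told from these values. Same-numbered deviations correlated at -0.198 to 0.411, no comparison had all pairs above 0.1, and 2 or 3 of 6 to 8 libraries correlated best with their own number. In KO ConA against WT ConA, 3 of 4 same-numbered pairs were above 0.1, with replicates 3 highest at 0.411.

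Rescaling reversed differences near 0: Psmb8 between the saline groups to 0.03, and in the interaction H2-K1 to -0.02 and Psmb8 to -0.10; without both ConA replicates 3 Nlrc5 between the ConA groups turned to 0.01. Leaving out single libraries also turned signs of differences that were not called. Between the saline groups the range was -0.02 to 0.23 for Tap2, -0.12 to 0.16 for Psmb10 and -0.13 to 0.06 for Psmb8. Between the ConA groups it was -0.13 to 0.02 for H2-D1, -0.07 to 0.04 for Psmb8 and -0.24 to 0.15 for Nlrc5, and for the subunit ratios -0.02 to 0.10 for Psmb8 over Psmb5 and -0.08 to 0.16 for Psmb9 over Psmb6. In the interaction it was -0.07 to 0.12 for Psmb8 and -0.03 to 0.36 for Nlrc5. The 3 subunit ratios kept their calls after ConA (log2 differences of 1.99 or more). TPM limit these results: without read counts no counting error can be given for low genes such as Nlrc5 and Ifng. With 4 mice per ConA group, the bounds of the 95% intervals between these groups reached -0.64 (Nlrc5) and 0.71 (Tap2) on the log2 scale.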

Other observations

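The summed level of the 10 genes, formed after the values were seen and not tested, was 7524 to 8384 TPM (WT) and 7259 to 8557 TPM (KO) under saline and 7965 to 9833 TPM (WT) and 7588 to 7829 TPM (KO) after ConA, and the ranges overlapped. B2m alone made up most of it under saline, so that its lower share after ConA ran against the higher shares of the other members. Among the inducible subunits, which enter the immunoproteasome together, the mean ratio of Psmb8 to Psmb9 within a library was 1.61 ± 0.277 in WT saline and 1.27 ± 0.191 in KO saline (SD, n = 3), and 0.735 ± 0.138 in WT ConA and 0.792 ± 0.0461 in KO ConA (n = 4), so their order turned in all 8 ConA mice. H2-Q10, a class I chain that hepatocytes secrete, read 2072 to 2223 TPM in WT saline, above every WT saline value of H2-K1, and 1124 to 1656 TPM in WT ConA.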
